A study of Mus musculus with 8 samples.

Results

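The 10 genes described here encode 4 ligands of the tumour necrosis factor (TNF) family (Tnf, Tnfsf9, Tnfsf12 and Tnfsf14), 5 receptors (Tnfrsf1a, Tnfrsf1b, Tnfrsf12a, Tnfrsf9 and the soluble decoy Tnfrsf11b) and Tnfaip3, an intracellular brake on TNF receptor signaling. They were chosen by name, with earlier results of these data known. Each was read from the probes assigned to its RefSeq transcript, taking the brightest probe with a signal well above background on at least 4 of 8 arrays. All 10 genes had such a probe, among 15156 genes with one and 20145 genes with any RefSeq-named probe on the array. The probes of 9 members were well above background on all 8 arrays, and that of Tnfrsf11b on 7.

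The heart ventricles of male mice on the C57BL\6 background were studied 24 hours after surgery. In 4 mice, myocardial infarction (MI) was induced by permanent ligation of the anterior interventricular artery, and 4 control mice had a sham operation. The methods and labels used here give no age in weeks, and the mice are described as adult. From each mouse, 200 ng of total RNA was labeled in 1 colour and hybridized to 1 mouse SurePrint G3 array, so that a replicate is a mouse. RNA came from whole ventricular tissue, in which infarcted and spared muscle are not separated.

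TNF family ligands are trimeric proteins, made mostly on the cell surface and often shed, that bind receptors of the TNF receptor family. TNF itself binds the receptors encoded by Tnfrsf1a and Tnfrsf1b. Ligand binding recruits adaptor proteins and ubiquitin ligases to the receptor, which activate NF-kB transcription factors and MAP kinases or, where caspase 8 is engaged, cell death. In the heart, TNF is known as an early cytokine of ischemic injury.

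Values are normalized log2 signals, in which a difference of 1 is a 2-fold change. They were computed from the scanner's processed intensities with each array's scale and additive constant as carried by the authors' spike-in normalization. On each array, 56.2% to 64.0% of all spots had a signal well above background. The 6 cardiomyocyte markers were bright on all arrays, and their differences between groups, between -0.16 and 0.29, did not pass the test. Signals of different probes are not comparable as levels, so genes are compared by their change between MI and sham-operated mice and not by brightness.

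The 250 bases before the transcription start are shown for the called members that have an entry among the RefSeq promoters, because these genes rose together. They are given 5′ to 3′ on the gene's strand in build GRCm38.p6, and capitals mark matches to the motifs searched. Tnf lies at chr17:35202008-35202257 on the minus strand, Tnfsf14 at chr17:57194182-57194431 on the minus strand, Tnfrsf12a at chr17:23677450-23677699 on the minus strand and the first start of Tnfaip3 at chr10:19015411-19015660 on the minus strand.
Tnf: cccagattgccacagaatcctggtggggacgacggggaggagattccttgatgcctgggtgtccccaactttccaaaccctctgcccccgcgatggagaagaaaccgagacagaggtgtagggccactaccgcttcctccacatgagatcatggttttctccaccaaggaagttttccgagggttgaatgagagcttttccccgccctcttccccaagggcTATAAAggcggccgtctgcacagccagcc
Tnfsf14: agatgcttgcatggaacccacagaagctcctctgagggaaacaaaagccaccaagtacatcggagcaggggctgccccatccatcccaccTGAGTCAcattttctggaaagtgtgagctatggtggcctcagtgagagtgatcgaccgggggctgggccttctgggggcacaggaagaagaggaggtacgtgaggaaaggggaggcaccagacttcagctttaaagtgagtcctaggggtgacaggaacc
Tnfrsf12a: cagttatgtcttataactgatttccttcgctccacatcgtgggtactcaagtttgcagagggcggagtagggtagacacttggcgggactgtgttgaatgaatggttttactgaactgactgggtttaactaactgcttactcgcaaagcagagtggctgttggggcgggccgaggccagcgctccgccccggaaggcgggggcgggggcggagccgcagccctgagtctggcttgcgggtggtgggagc
Tnfaip3: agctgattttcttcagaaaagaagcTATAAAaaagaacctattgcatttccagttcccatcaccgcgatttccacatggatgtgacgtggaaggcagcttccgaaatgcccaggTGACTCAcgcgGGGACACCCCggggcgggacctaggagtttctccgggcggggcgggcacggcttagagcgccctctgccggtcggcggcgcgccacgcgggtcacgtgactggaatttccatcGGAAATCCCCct

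Both strands were searched for TATAAA, for TGANTCA, the site of AP-1 factors, and for the kappaB motif, the site of NF-kB. The Tnf window held TATAAA starting 29 bases before the start and no match to the others. The Tnfsf14 window held TGAGTCA starting at base 160 before the start. The Tnfaip3 window held TATAAA from base 225, TGACTCA from base 136, and kappaB matches from base 125 and, on the opposite strand, base 12 before the start. No match was found in the Tnfrsf12a window. Of the 7 members with an entry, with 9 start sites between them, the other matches were at the second start of Tnfrsf9, with overlapping kappaB matches from bases 43 and 42 and TGAGTCA from base 15. The second start of Tnfaip3, the first start of Tnfrsf9, Tnfrsf1a and Tnfrsf1b had none. The same windows of all 32851 RefSeq promoters held the kappaB motif in 7.25%, TGANTCA in 6.75% and TATAAA in 12.4%. A match describes letters and was not tested as a site.

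More than 2-fold higher signals in MI than in sham-operated mice, with an adjusted p under 0.05, were found for 5 of 10 genes, namely the ligands Tnf, Tnfsf9 and Tnfsf14, the receptor Tnfrsf12a and Tnfaip3. Among all 34038 retained probes, 3.07% were called higher by this rule (1046 probes) and 0.405% lower (138 probes), and no member was lower. Counting calls at any fold, Tnfrsf1a joined them for 6 of 10, where 6.3% of all probes were higher and 1.31% lower. The 4 MI values lay above all 4 sham values for 7 of the 10 genes, as for 8.46% of all probes. The mean was higher in MI mice for all 10 genes, as for 64.9% of all probes. The median log2 fold change was 0.99 over the members and 0.12 over all probes. Tnf, Tnfsf9, Tnfsf14, Tnfrsf12a, Tnfrsf9 and Tnfaip3 are among the genes that the study itself grouped into pathways from these same mice, so their number is not independent evidence. These tests were made with limma, and their p-values were adjusted over every retained probe (Benjamini-Hochberg). In whole tissue, a change in the number of cells of a type cannot be told apart from a change in RNA per cell.

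**Figure D1:**
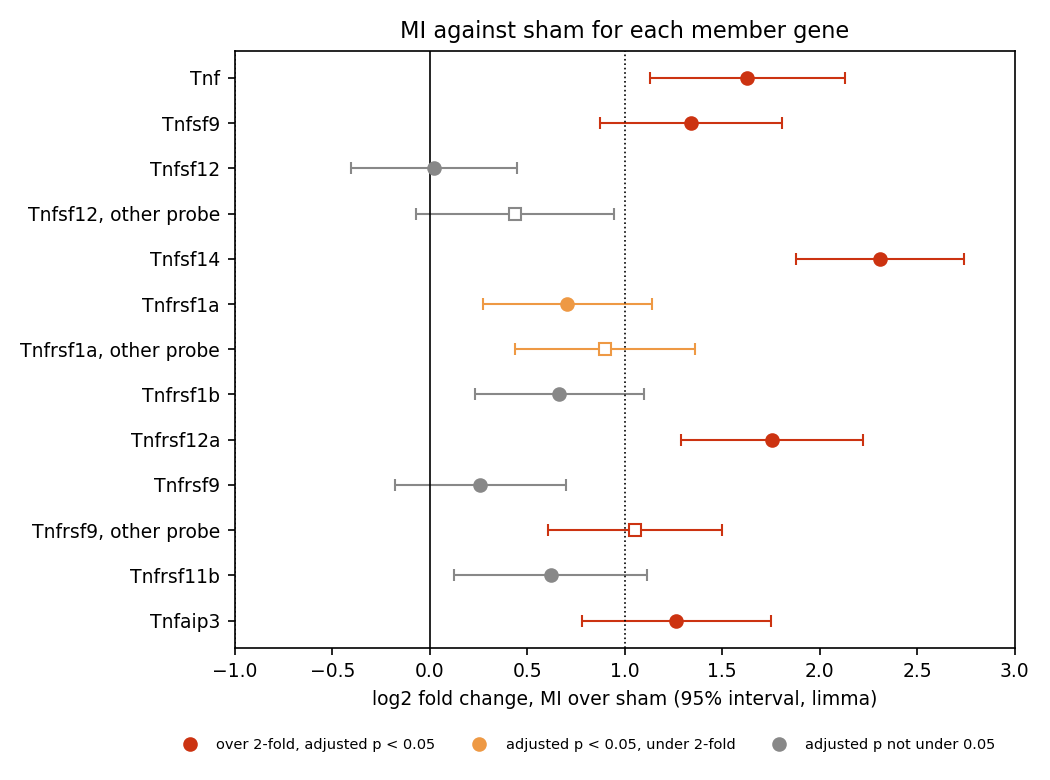
Log2 fold change (MI over sham, limma) of the probe used for each gene (circles) and of a further probe where a gene had one (open squares), with 95% confidence intervals, and a dotted line at a 2-fold rise. Tnfsf14 lies farthest right at 2.31, Tnfsf12 lies at 0.02, and the probes of Tnfrsf9 lie at 0.26 and 1.05.

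Of the 4 ligands among the members, 3 were called higher in MI mice, and Tnf is given first. The Tnf probe gave 5.01, 5.17, 5.57 and 5.47 in sham-operated mice 1 to 4, and 6.54, 7.35, 7.47 and 6.39 in MI mice 1 to 4. MI mice 2 and 3 were the highest, and the lowest MI mouse stood 0.82 above the highest sham-operated mouse. The means of MI and sham-operated mice were 6.94 ± 0.55 and 5.31 ± 0.26 (SD, n = 4 each), a 3.09-fold difference (95% confidence interval 2.19 to 4.38, log2 1.63, SE 0.24, adjusted p = 4.06e-05, limma). The exact two-sided permutation test over mice gave p = 0.0286, the smallest p that 4 against 4 mice allow. This probe was spotted 10 times on each array, with an SD between spots of 0.05 to 0.21, so that its spread between mice was measured on averaged spots. Its processed intensities were low, at 18.6 to 32.8 in sham-operated mice and 74.8 to 186 in MI mice.

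Tnfsf14 encodes LIGHT, which binds the herpesvirus entry mediator and the lymphotoxin beta receptor. Its values were 6.05, 5.72, 5.84 and 5.90 in sham-operated mice, and 8.42, 8.24, 8.32 and 7.76 in MI mice. The groups were separated by 1.71, more than for any other of the 10 genes. The means were 8.19 ± 0.29 and 5.87 ± 0.14 (SD, n = 4 each), a 4.96-fold difference (95% confidence interval 3.68 to 6.69, log2 2.31, SE 0.21, adjusted p = 1.72e-08, limma), with p = 0.0286 in the exact permutation test.

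Tnfsf9 encodes the ligand of 4-1BB, a costimulatory receptor of activated T cells. It gave 6.30, 6.13, 7.05 and 6.23 in sham-operated mice, and 7.65, 7.66, 8.12 and 7.63 in MI mice. Mouse 3 of each group was the highest, and the groups did not overlap. The difference was 2.53-fold (95% confidence interval 1.83 to 3.50, log2 1.34, SE 0.23, adjusted p = 0.000208, limma), between 7.77 ± 0.23 and 6.43 ± 0.42 (SD, n = 4 each).

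Tnfsf12 encodes TWEAK, the ligand of the receptor encoded by Tnfrsf12a. It was 9.80, 9.88, 10.03 and 9.81 in sham-operated mice, and 10.02, 9.56, 10.19 and 9.86 in MI mice. The groups overlapped, with both the highest and the lowest value among MI mice. The ratio was 1.02 (95% confidence interval 0.757 to 1.36, log2 0.02, SE 0.21, adjusted p = 0.967, limma), which leaves changes of up to 1.36-fold up or to 0.757 down inside the interval. A second probe of Tnfsf12 gave a ratio of 1.35 (95% confidence interval 0.952 to 1.93, adjusted p = 0.344, limma), also with overlap. Tnfsf12 lies beside Tnfsf13 and shares readthrough transcripts with it, and whether its probes also bind those was not tested.

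**Figure D2:**
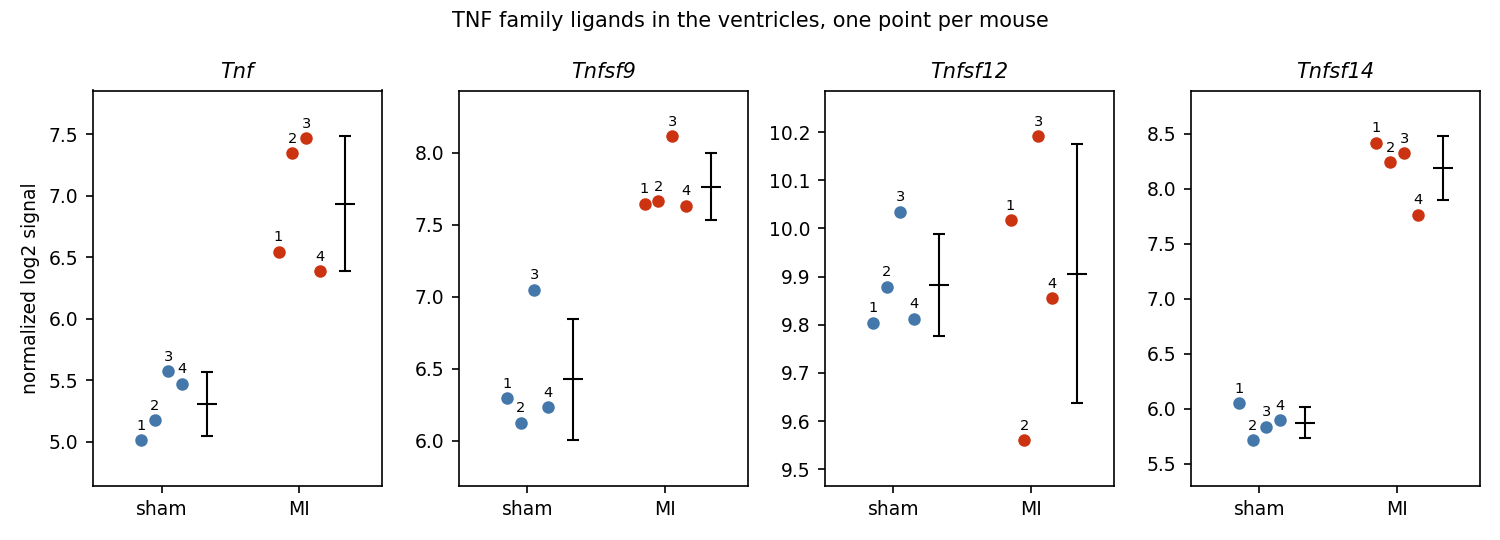
Normalized log2 signal of the 4 ligands in each mouse (points, numbered by replicate, sham in blue and MI in red), with mean and SD of each group (n = 4), on a separate axis range for each gene. The groups are apart for Tnf, Tnfsf9 and Tnfsf14, by 1.71 for Tnfsf14, and overlap for Tnfsf12.

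Of the 5 receptors among the members, Tnfrsf12a had the largest rise. It encodes Fn14, the TWEAK receptor, which is known to be induced in injured tissue. Its values were 14.00, 13.91, 13.74 and 13.73 in sham-operated mice, and 15.76, 15.46, 16.14 and 15.03 in MI mice. All MI mice lay at least 1.03 above all sham-operated mice, and the MI mice were spread over 2.16-fold against 1.21-fold in sham-operated mice. The means were 15.60 ± 0.47 and 13.85 ± 0.13 (SD, n = 4 each), a 3.37-fold difference (95% confidence interval 2.44 to 4.67, log2 1.75, SE 0.23, adjusted p = 5.07e-06, limma). Its processed intensities ran from 10308 to 19534 in sham-operated mice and from 39122 to 64419 in MI mice.

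Tnfrsf1a encodes TNF receptor 1, present on most cell types and carrying a death domain. It gave 12.42, 11.96, 12.68 and 12.27 in sham-operated mice, and 13.10, 12.83, 13.20 and 13.03 in MI mice. The groups did not overlap, with a gap of 0.15. The difference was 1.63-fold (95% confidence interval 1.21 to 2.20, log2 0.71, SE 0.21, adjusted p = 0.038, limma), with means of 13.04 ± 0.15 and 12.33 ± 0.30 (SD, n = 4 each). A second probe gave 1.87-fold (95% confidence interval 1.36 to 2.56, adjusted p = 0.0104, limma), again without overlap. The call at any fold of the brighter probe was lost without MI mouse 1, 3 or 4 or without sham-operated mouse 2 or 4, with an adjusted p (limma) up to 0.144. It held in 10 of 12 alternatives and was lost with the spike-in shift alone (adjusted p = 0.088, limma) and without a filter on detection (adjusted p = 0.201, limma).

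Tnfrsf1b encodes TNF receptor 2, known mainly from immune and endothelial cells. Its values were 6.84, 6.71, 7.24 and 6.78 in sham-operated mice, and 7.31, 7.50, 7.54 and 7.87 in MI mice. The groups were separated by 0.07. The ratio of 1.58 (95% confidence interval 1.17 to 2.14, log2 0.66, SE 0.21) missed the threshold with an adjusted p of 0.0528 (limma), while the exact permutation test of this gene alone gave p = 0.0286. Of 8 fits that each dropped 1 mouse, 2 passed at any fold. The adjusted p (limma) was 0.0481 without MI mouse 2 and 0.0303 without sham-operated mouse 3, and ran up to 0.183 over the 8 fits. Tnfrsf1b passed at any fold in 4 of 12 alternatives and in 0 of 7 scalings. The means were 7.56 ± 0.24 and 6.89 ± 0.24 (SD, n = 4 each).

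Tnfrsf9 encodes 4-1BB, and its probes did not show the same change. The brighter probe gave 10.71, 10.48, 10.74 and 10.49 in sham-operated mice, and 11.09, 10.42, 11.14 and 10.81 in MI mice, with MI mouse 2 below all sham-operated mice. The ratio was 1.20 (95% confidence interval 0.884 to 1.62, log2 0.26, SE 0.21, adjusted p = 0.552, limma). The dimmer probe gave 5.29, 5.42, 4.89 and 4.90 in sham-operated mice, and 5.97, 5.91, 6.34 and 6.50 in MI mice, without overlap. Its difference of 2.08-fold passed the test (95% confidence interval 1.53 to 2.83, log2 1.05, SE 0.22, adjusted p = 0.00189, limma). No direction is therefore given for Tnfrsf9, and what each probe binds was not tested.

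Tnfrsf11b encodes osteoprotegerin, a soluble receptor that captures the ligands RANKL and TRAIL. It gave 5.31, 5.13, 4.54 and 4.58 in sham-operated mice, and 5.57, 5.45, 4.98 and 6.04 in MI mice. MI mouse 3 lay below sham-operated mice 1 and 2, so the groups overlapped. The probe was near the detection limit, with intensities of 10.9 to 31.4 in sham-operated mice and not well above background in sham-operated mouse 4, whose value is its measured signal. The ratio was 1.54 (95% confidence interval 1.09 to 2.17, log2 0.62, SE 0.24, adjusted p = 0.127, limma, and p = 0.114 in the exact permutation test). Of 8 fits that each dropped 1 mouse, 1 passed at any fold, that without MI mouse 3 (adjusted p = 0.0456, limma). The adjusted p (limma) ran up to 0.359 over the 8 fits. Tnfrsf11b passed in 0 of 11 alternatives, with folds from 1.07 to 1.82.

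Tnfaip3 encodes A20, a ubiquitin-editing enzyme that limits NF-kB activation downstream of TNF receptors and is itself an NF-kB target. Its values were 8.03, 7.82, 8.60 and 7.89 in sham-operated mice, and 9.35, 9.33, 9.87 and 8.85 in MI mice. The lowest MI mouse stood 0.25 above the highest sham-operated mouse. The means were 9.35 ± 0.41 and 8.09 ± 0.36 (SD, n = 4 each), a 2.40-fold difference (95% confidence interval 1.72 to 3.36, log2 1.26, SE 0.24, adjusted p = 0.000635, limma). Its first start held 2 kappaB matches in the sequence printed above and its second start none, and their part in the change was not tested.

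**Figure D3:**
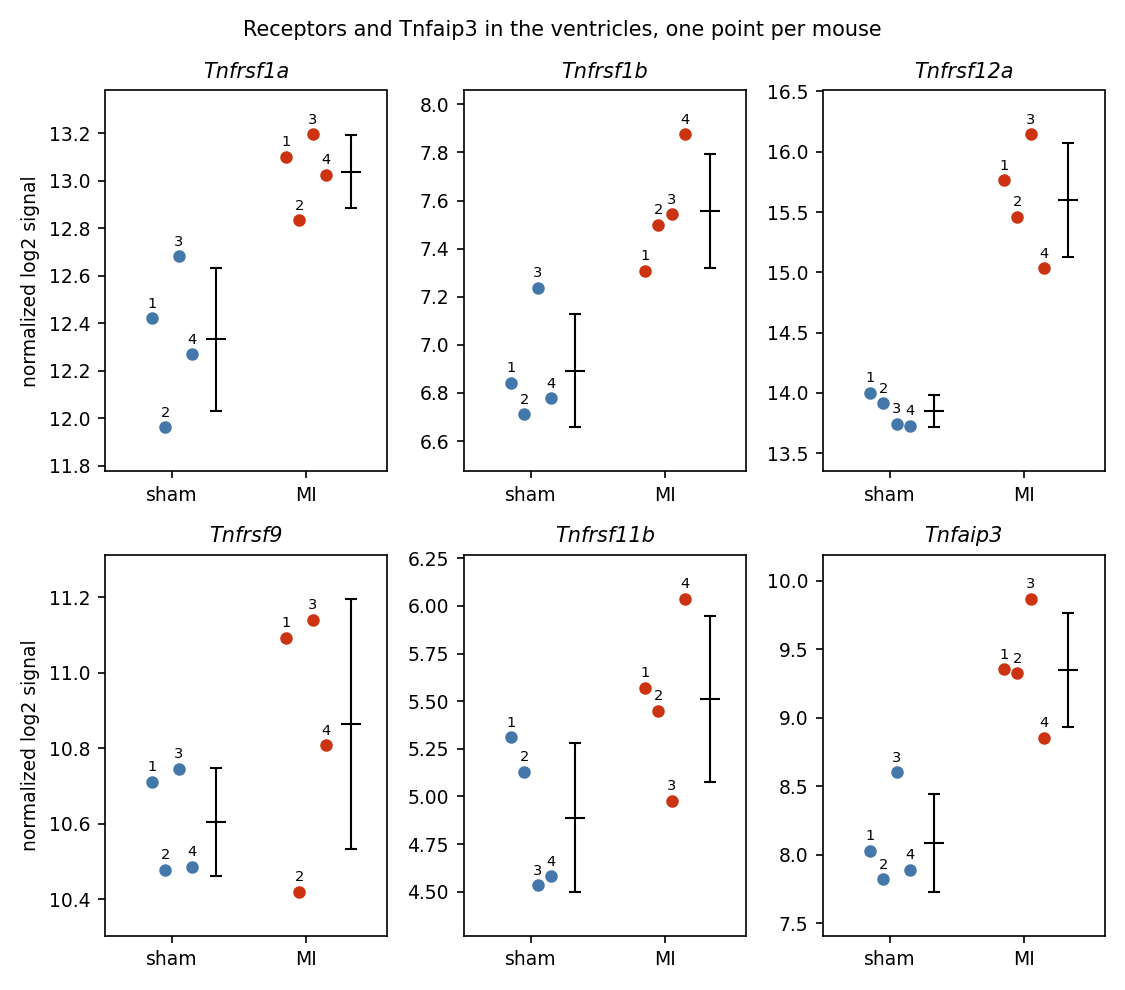
Normalized log2 signal of the 5 receptors and of Tnfaip3 in each mouse (points, numbered by replicate, sham in blue and MI in red), with mean and SD of each group (n = 4), on a separate axis range for each gene. The groups do not overlap for Tnfrsf1a, Tnfrsf1b, Tnfrsf12a and Tnfaip3, and overlap for Tnfrsf9 and Tnfrsf11b.

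The change of a ligand was set against that of its receptor in each mouse as the difference of their log2 signals. This comparison of 6 pairs was chosen after the values had been seen. Its p-values do not account for that choice and are given as a description. They are exact two-sided permutation tests adjusted over the 6 pairs, and 0.0286 is the smallest p these mice allow. Tnfrsf12a rose more than its ligand Tnfsf12, by 1.73 on the log2 scale (SE 0.21, exact permutation p = 0.0286, adjusted p = 0.0343). In the opposite order, Tnfsf14 changed by 2.35 more than Tnfrsf14, which encodes the herpesvirus entry mediator (SE 0.26), and by 1.87 more than Ltbr, the lymphotoxin beta receptor (SE 0.16), each with an exact permutation p of 0.0286 and an adjusted p of 0.0343. Neither receptor passed the test of MI against sham, with log2 changes of -0.04 for Tnfrsf14 and 0.44 for Ltbr (adjusted p = 0.947 and 0.236, limma). Tnfsf9 changed by 1.08 more than the brighter Tnfrsf9 probe (SE 0.22, adjusted exact permutation p = 0.0343), which the dimmer Tnfrsf9 probe leaves uncertain. Tnf changed by 0.92 more than Tnfrsf1a (SE 0.33, adjusted exact permutation p = 0.0343) and by 0.97 more than Tnfrsf1b (SE 0.35, adjusted exact permutation p = 0.0571). All pairs use the brightest probe of each gene. The second probe of Tnfsf12 changed by 0.44 and that of Tnfrsf1a by 0.90 (log2), closer to their partners, and pairs with these probes were not tested. With a vsn model refitted on the spike-ins, the difference of Tnf from Tnfrsf1a turned to -0.24 (SE 0.16, exact permutation p = 0.2), and with normexp background correction it was 0.19 (SE 0.19, exact permutation p = 0.4). With the refitted vsn model, Tnfsf14 changed by 0.95 more than Tnfrsf14 and by 0.51 more than Ltbr, and Tnfsf9 by 0.31 more than Tnfrsf9, the last with overlap (exact permutation p = 0.0571). The difference of Tnfsf12 from Tnfrsf12a was -1.72 with vsn and -1.77 with normexp. With vsn, no pair had an adjusted exact permutation p under 0.05, the lowest being 0.0571. For Tnfsf12 and Tnfrsf12a the unadjusted exact permutation p stayed at 0.0286, without overlap. Its adjusted value rose because fewer of the other pairs reached that smallest p.

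The size of the changes in dim genes differed between normalizations. The authors' additive constants were 3.16 to 19.6 and uneven, with 3.16 in sham-operated mouse 3 and 4.74 in MI mouse 3. Constants refitted with the vsn model were 166 to 257, above the sham intensities of Tnf, Tnfsf9 and Tnfsf14. With the latter, Tnf rose 1.36-fold (adjusted p = 0.0684, limma) and only Tnfrsf12a of the 10 genes kept its call at 2-fold. With normexp background correction, Tnfrsf12a and Tnfsf14 kept theirs. Across 12 alternatives Tnfrsf12a stayed between 3.14-fold and 3.39-fold, while Tnf ranged from 1.36-fold to 4.11-fold and Tnfsf14 from 1.92-fold to 6.00-fold. The median of all probes was 0.12 higher in MI mice and between -0.03 and 0.11 under the other scalings. Relative to this shift, the log2 changes were 2.20 for Tnfsf14, 1.64 for Tnfrsf12a, 1.51 for Tnf, 1.22 for Tnfsf9, 1.15 for Tnfaip3, 0.59 for Tnfrsf1a, 0.55 for Tnfrsf1b, 0.50 for Tnfrsf11b, 0.14 for Tnfrsf9 and -0.09 for Tnfsf12. The sign of Tnfsf12 also turned under 3 of the scalings, and the other 9 kept theirs under all 7. Scaling each array to its 75th percentile called 3105 probes higher and 2741 lower at any fold, quantile normalization 3354 and 3472, and normexp 3312 and 3716, beside 2144 and 446 here. At 2-fold the first of these gave 1083 higher and 366 lower, and quantile normalization 764 and 247.

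The mice differed in their values over the 10 genes. Against the sham mean, the median log2 value over the 10 genes was 1.28 in MI mouse 3, 1.03 in MI mouse 4, 0.99 in MI mouse 1 and 0.92 in MI mouse 2. MI mouse 3 was the highest of its group for 7 of the 10 genes, and MI mouse 4 was the lowest for 5 but the highest for Tnfrsf1b and Tnfrsf11b. Sham-operated mouse 3 was the highest of its group for 7 genes and sham-operated mouse 2 the lowest for 6. Both mice numbered 3 were also the highest of their groups for the cardiomyocyte markers Myh6, Actc1 and Tnnt2, which were not called. MI mouse 3 gave 19.04, 19.36 and 18.69 for these, and sham-operated mouse 3 gave 19.16, 19.07 and 18.77. Their arrays had scales of 0.17 and 0.41 (log2), each the highest of its group, and the small additive constants given above. The part of scales and constants in the order was not tested. Each of the 5 calls at 2-fold was kept when any of the 8 mice was left out. All arrays shared 1 slide and 1 scan, and each of its 2 rows held 2 mice of either group. Within the rows, the differences (row 1 and row 2, log2) were 1.85 and 1.41 for Tnf, 1.44 and 1.23 for Tnfsf9, and 2.45 and 2.18 for Tnfsf14. They were 1.66 and 1.85 for Tnfrsf12a, 1.41 and 1.12 for Tnfaip3, 0.78 and 0.63 for Tnfrsf1a, and 0.63 and 0.70 for Tnfrsf1b. For Tnfrsf11b they were 0.29 and 0.95, for Tnfrsf9 0.16 and 0.36, and for Tnfsf12 -0.05 and 0.10, so that the sign was shared by both rows for every member except Tnfsf12.

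**Figure D4:**
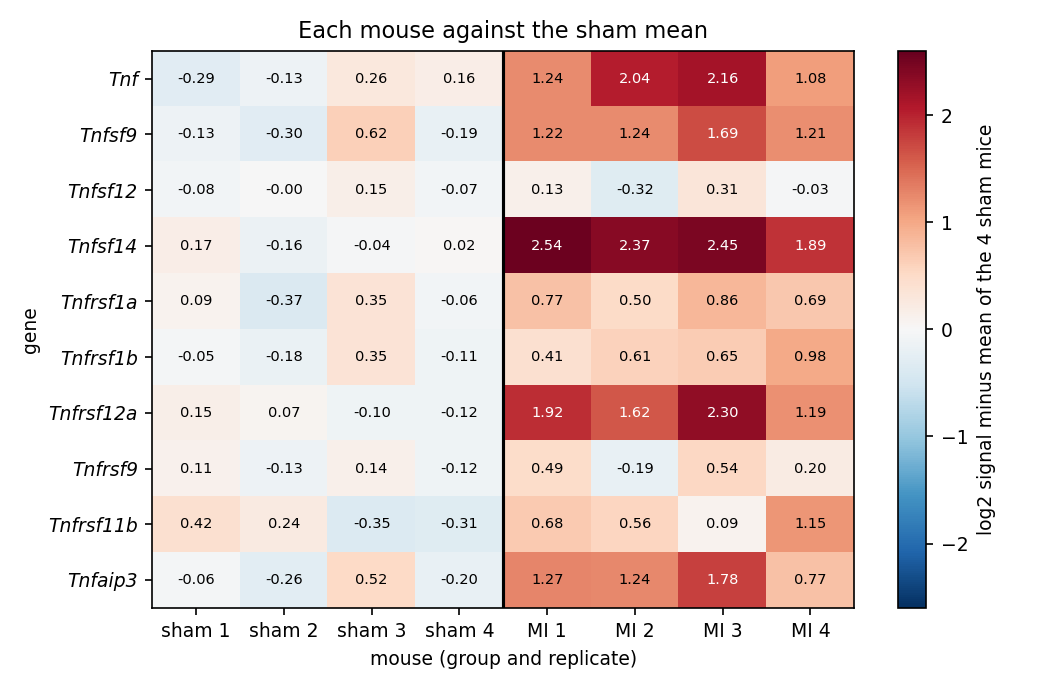
Log2 signal of each gene in each mouse minus the mean of the 4 sham-operated mice (colour and printed value, sham left of the line and MI right). Columns of MI mice are above 1 for Tnf, Tnfsf9, Tnfsf14 and Tnfrsf12a in all 4 mice, with 2.30 for Tnfrsf12a in MI mouse 3.

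Some markers of myeloid cells were higher in MI mice and others were not, where 3.07% of all retained probes were called higher at 2-fold. Of the 5 neutrophil markers with a retained probe, 4 were higher in MI mice at 2-fold, with log2 changes of 4.24 for Retnlg, 3.31 for Cxcr2, 3.02 for S100a8 and 2.79 for S100a9, while Csf3r was at 0.08. Their summed normalized signal was 61307 to 80186 in sham-operated mice and 203427 to 315059 after MI, without overlap. Such a sum weighs the brightest probes of a list most and does not describe each gene. Of 7 listed markers of monocytes and macrophages, 6 had a retained probe, and of these Cd14 (2.25) and Ccr2 (1.15) were higher. The marker without a retained probe here was Cd68, which the study itself reports as up-regulated on its microarrays, as it does the leukocyte marker CD45. Lyz2 (0.15), Itgam (0.14), Adgre1 (-0.24) and Csf1r (-0.16) were not called. The summed signals of 37617 to 56613 in MI mice and 31320 to 60721 in sham-operated mice overlapped. No marker of T cells (2 with a retained probe), B cells (3), NK cells (1), fibroblasts (4) or endothelial cells (4) was called by limma or by significance analysis of microarrays, with 0, 2, 0, 1 and 1 of them at an unadjusted p under 0.05 (limma), and of 3 smooth muscle markers Acta2 was higher (1.46). The part of infiltrating cells in the changes of Tnf, Tnfsf9, Tnfsf14, Tnfrsf12a and Tnfaip3 was not tested.

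The genes whose deviations from the group means followed those of Tnf most closely over the 8 mice, among 15086 named genes, were S100a9 (Pearson r = 0.93), Onecut2 (r = 0.92) and Cxcl1 (r = 0.92). For Tnfsf14 they included Actl7a (r = 0.93) and Eef2k (r = 0.93). These are the highest of many values from 8 arrays that share a slide, and they are given as a description only.

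The rest of the pathway was read in 6 lists, also chosen with earlier results of these data known. Their counts stand beside 3.07% of all retained probes called higher at 2-fold and 0.405% lower. At any fold, 6.3% of all probes were higher and 1.31% lower. Of the 14 other ligands of the family, 7 had a retained probe and 1 was higher in MI mice at 2-fold. This was Ltb, which encodes lymphotoxin beta, at 6.25, 6.05, 6.09 and 6.13 in sham-operated mice and at 8.34 or more in all MI mice. The difference of 5.41-fold (95% confidence interval 4.02 to 7.28, adjusted p = 7.25e-09, limma) left no overlap, and ran from 2.16-fold to 6.32-fold over the 7 scalings. The median over the 7 genes was 0.27, beside 0.12 for all probes. The 7 without a retained probe were Tnfsf4, Cd40lg, Fasl, Cd70, Tnfsf8, Tnfsf11 and Tnfsf13.

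Of the 23 other receptors, 18 were retained, 5 were higher at 2-fold, and the median was 0.17. The largest changes were 4.21-fold for Tnfrsf26, 3.07-fold for Relt, 2.70-fold for Tnfrsf23 and 2.63-fold for Tnfrsf22, with adjusted p (limma) from 1.21e-07 to 5.34e-05. Tnfrsf18, which encodes GITR, was the other at 2.30-fold (adjusted p = 0.000356, limma). The Tnfrsf26 probe was well above background in 2 of 4 sham-operated mice and in all MI mice. Tnfrsf22, Tnfrsf23 and Tnfrsf26 are closely related neighbouring genes, and whether their probes cross-match was not tested. A single gene was lower, at any fold and named after its values were seen, Tnfrsf19 with a log2 change of -0.77 and overlapping groups (adjusted p = 0.0417, limma). None of the 5 kept its call at 2-fold with the refitted vsn model, and 3 did with normexp. Over the 7 scalings, Tnfrsf26 ran from 1.35-fold to 8.10-fold.

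All 24 adaptors and kinases of the receptor complexes had a retained probe, and their median was 0.20. At 2-fold, 1 of the 24 was called higher, a share near the 3.07% of all probes. This was Casp8, the initiator caspase of the death pathway, with 2.10-fold (adjusted p = 0.00125, limma). Its log2 change of 1.07 fell to 0.96 without sham-operated mouse 2 and to 0.96 without MI mouse 3. Its call at 2-fold held in 3 of 7 scalings, with a lowest fold of 1.74, and 0 of the 24 genes passed at 2-fold with the 75th percentile, vsn, quantile normalization or normexp. Counting any fold, 5 of 24 were higher and 0 lower by limma (7 at an unadjusted p under 0.05, and 7 by significance analysis of microarrays). Beside Casp8 these were Map3k14 (0.96), Traf1 (0.89), Ripk1 (0.82) and Otulin (0.72), named after their values were seen.

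Of the 10 NF-kB subunits and inhibitors, 3 were higher at 2-fold, 6 at any fold and 0 lower, with a median of 0.80. Nfkbie, an inhibitor of the IkB type, rose 2.54-fold, Bcl3, a nuclear member of that family, 2.36-fold, and Relb, a subunit of the alternative pathway, 2.24-fold (adjusted p = 0.000237, 0.000393 and 0.000633, limma). With the refitted vsn model and with normexp, 1 of the 10 passed at 2-fold.

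Of the 19 genes listed as TNF-induced targets and feedback regulators, 9 were higher at 2-fold, 11 at any fold and 0 lower, with a median of 0.90. The other 8 were not called. Among these was Tnip3, named after its values were seen, with all MI mice below all sham-operated mice (log2 -0.51, adjusted p = 0.16, limma). With the 75th percentile, quantile normalization and normexp, Tnip3 was called lower at any fold. The largest changes were those of the chemokines Cxcl10, at 17.0-fold, and Cxcl2, at 12.8-fold, of the cytokine Il6, at 10.2-fold, and of the chemokine Cxcl1, at 6.50-fold, with adjusted p (limma) from 1.04e-10 to 2.3e-07. Over the 7 scalings, which kept these calls, the folds ran from 3.84 to 24.6 for Cxcl10, from 2.96 to 19.2 for Cxcl2, from 6.35 to 10.8 for Il6 and from 4.84 to 6.71 for Cxcl1, so that their order depends on the scaling. Cxcl10 was well above background in 3 of 4 sham-operated mice. Il6 ran from 7.26 to 9.32 in sham-operated mice and from 10.76 to 12.25 in MI mice. The 4 neutrophil markers named above were higher in the same MI mice, and their part in these changes was not tested. None of the 5 genes of TNF and receptor shedding, Adam17, Adam10, Rhbdf1, Rhbdf2 and Timp3, passed the test at any fold (log2 changes from -0.09 to 0.60, median 0.12). At an unadjusted p under 0.05 (limma) 1 of them passed, Rhbdf2, and significance analysis of microarrays called 0.

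**Figure D5:**
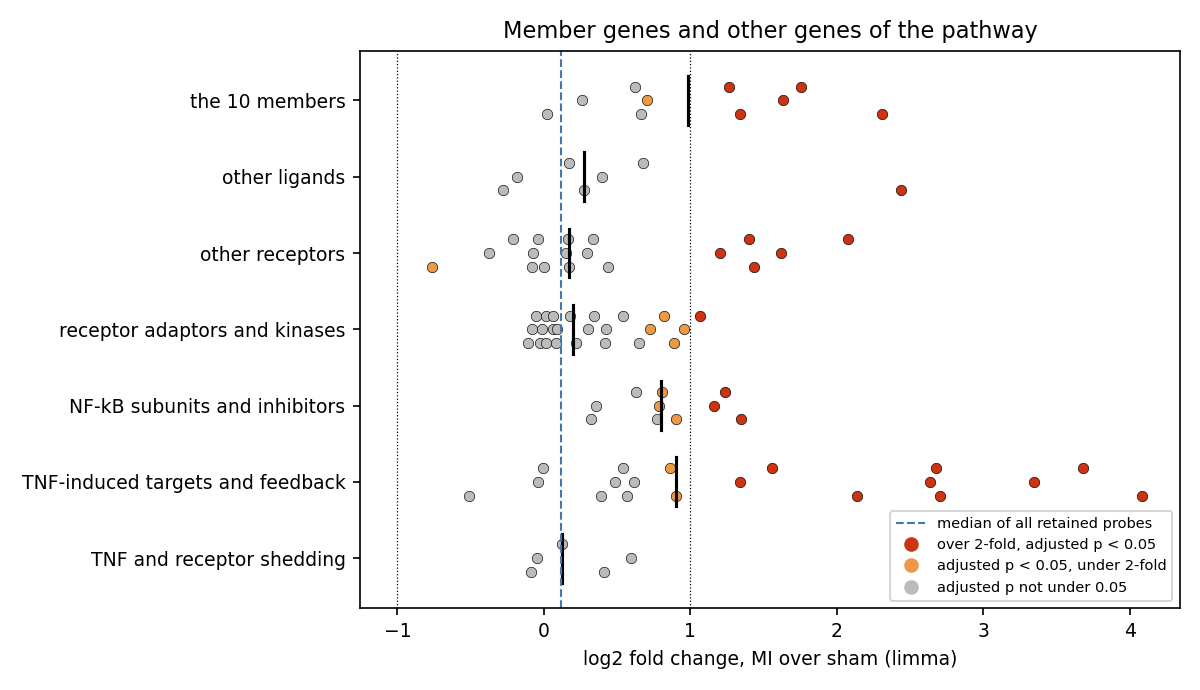
Log2 fold change (MI over sham, limma) of the 10 members and of each gene with a retained probe in 6 lists of the pathway, coloured by call, with a black bar at each list's median and a dashed line at the median of all retained probes (0.12). The medians of the members (0.99), the NF-kB list (0.80) and the target list (0.90) lie to the right of the other lists, whose medians run from 0.12 to 0.27.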

How the data were processed

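Probe intensities of 8 arrays (4 MI mice and 4 sham-operated mice) were analysed, with groups taken from the sample labels. The intensities used were deposited as processed signals which, per the file headers, Feature Extraction 11.0.1.1 had background-subtracted and detrended within an array, with no normalization across arrays. The log2 values deposited by the authors were normalized between arrays on spike-in probes with limma and vsn, leaving out spots not well above background.

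Setting the authors' log2 values against the intensities gave each array's scale and additive constant with a largest misfit of 5.02e-09, and these were applied to all spots without an outlier flag. Spots of a probe were averaged, and the 34038 of 55681 probes well above background on at least 4 of 8 arrays were kept. For Tnf, 2 flagged spots of MI mouse 2 and 1 of MI mouse 3 were left out. The array design follows an older mouse build than the promoters, so no gene coordinates are given beyond those of the promoters (RefSeq, GRCm38.p6).

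The 2 groups were compared by limma 3.58.1 in R 4.3.3 without covariates, with Benjamini-Hochberg adjustment over all retained probes and calls at a fold over 2 and an adjusted p under 0.05. Where stated, p-values are exact two-sided permutation tests. They measure the spread between these mice, and the number of arrays limits the precision. The methods of the study name significance analysis of microarrays, which was run as an alternative over all 70 label permutations. Other alternatives were scaling to the 75th percentile, a spike-in shift alone, the vsn model fitted anew on 234 spots of 7 spike-in probes, quantile normalization, normexp with an offset of 50 on median foreground and background intensities, the authors' values, other filters on detection, blocks for replicate number and array row, and each mouse left out in turn. Scripts were tested on simulated data. Python 3.11.15 with numpy 2.4.6, scipy 1.17.1, pandas 2.3.3 and matplotlib 3.10.9 served for the rest.

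The members, pathway lists and marker lists were chosen with earlier results of these data known. Besides the members, the text names from each list the genes called at 2-fold, at most the 4 largest in each direction, and for Tnf and Tnfsf14 the 3 genes most alike, of which 1 is not reported here. Ligand and receptor pairs and the alternatives for the lists were added after seeing the data, and further genes were named with their values in view. No column of values was left unmapped.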

Additional observations from a re-analysis of the deposited data

Results flagged for a closer look

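For Tnfsf9, MI mouse 3 stood apart from its group. Its log2 signal was 8.12, beside 7.63 to 7.66 in the other 3 MI mice, so that its gap to the nearest of them was 0.936 of the range of the group, above Dixon's 95% critical value for 4 samples. Of 20 groups checked (10 genes, each in both groups), this was 1, and chance flags about 1 in 20. Sham-operated mouse 3 was also the highest of its group for Tnfsf9, at 7.05.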

How the results depend on the processing

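The count of probes called at 2-fold (1184) was 333 with the refitted vsn model and 539 with normexp, and the count at any fold (2590) was 1271 with vsn, 5846 with scaling to the 75th percentile, 6826 with quantile normalization, 7028 with normexp and 990 without a filter on detection, which tests more probes. The members called at 2-fold (5) were 1 with vsn and 2 with normexp. With each mouse left out, the probes called ranged from 1046 to 1461 at 2-fold and from 1883 to 3213 at any fold, and the members from 5 to 5 at 2-fold and from 5 to 7 at any fold. Tnf, Tnfsf9, Tnfsf14 and Tnfaip3 kept their direction but fell to log2 changes of 0.45, 0.55, 0.94 and 0.87 with vsn, and Tnf, Tnfsf9 and Tnfaip3 to 0.82, 0.84 and 0.91 with normexp. Significance analysis of microarrays called 5 members at 2-fold and 7 at any fold. The dimmer Tnfrsf9 probe passed at 2-fold. Of the list genes called at 2-fold, 10 missed it with vsn, 6 with normexp, and 1 each with the 75th percentile and quantile normalization. The sign of Tnfsf12 turned to -0.082 with the 75th percentile, -0.084 with quantile normalization, -0.078 with normexp, -0.0027 without sham-operated mouse 1, -0.013 without MI mouse 1, -0.072 without MI mouse 3 and -0.053 within array row 1. The difference of Tnf from Tnfrsf1a turned to -0.24 with vsn. The cause was not tested. The low signal over background of Tnf and Tnfrsf11b limits their values.

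With the replicate number as a block, 1155 probes passed at 2-fold and 4895 at any fold, and 5 and 7 members, Tnfrsf1b being the added one. The labels share these numbers between groups without saying that they pair mice. Deviations of same-numbered mice correlated at 0.24, 0.29, 0.14 and 0.01. MI mice 1 and 2 correlated best with the sham-operated mouse of their own number, and MI mice 3 and 4 did not. With so few mice this cannot decide whether the numbers pair them, and the main test used no block.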
